A study of Homo sapiens with 6 samples.

Results

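HEXIM1 and 8 further genes that control the elongation kinase P-TEFb were followed through 6 RNA-seq libraries of ovarian cancer cells. The members were taken by name from the deposited table: HEXIM1, HEXIM2, CDK9, CCNT1, CCNT2, LARP7, MEPCE, AFF4 and ELL2. All 9 had a row among the 23145 genes kept, and all 9 were among the 12841 genes tested, those whose FPKM averaged 1 or more. FPKM is the number of fragments scaled for the length of the transcript and the size of the library. Levels are set side by side below on that scale, which does not correct for base composition or for what else a library holds. The set was chosen because HEXIM1 was lower in every COL11A1-high library than in the low libraries of its line. The members' values in that comparison are therefore a description, and no test of them is given for it.

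The study asked which mRNAs go with high COL11A1, the gene for a fibrillar collagen chain, in 2 human ovarian cancer lines, A2780 and OVCAR3. In A2780 the COL11A1-low libraries came from cells with a scrambled shRNA and from cells with an shRNA against COL11A1 (A2780-shCOL11A1). The COL11A1-high A2780 libraries came from A2780CIS, a derivative selected by long exposure to cisplatin whose own COL11A1 is high, and from A2780 transfected with COL11A1 (A2780-COL11A1). In OVCAR3 the low library came from cells transfected with GFP and the high library from cells transfected with COL11A1 (OVCAR3-COL11A1). All were grown in RPMI with serum, and each construct was sequenced once. The labels do not say whether a culture was a clone or a pool. An shRNA is named for each low A2780 culture and for no high one, so construct type and COL11A1 cannot be told apart in that line.

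P-TEFb is a kinase made of CDK9 and a T-type cyclin. It phosphorylates RNA polymerase II and the pausing factors NELF and DSIF, which lets paused polymerase move into the gene body. Much of it is held inactive in a particle built on the 7SK RNA, where HEXIM1 or HEXIM2 inhibits the kinase, LARP7 binds the end of the RNA and MEPCE caps it. AFF4 is the scaffold and ELL2 an elongation factor of the super elongation complex, through which active P-TEFb works. HEXIM1 transcription is known to increase when P-TEFb is released from the 7SK particle, for example after BET bromodomain inhibition, and its mRNA is used as a readout of such inhibitors.

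The promoters of 3 members are shown, HEXIM1, HEXIM2 and CDK9. These were the members lower in both COL11A1-high A2780 libraries than in both low ones, as were 27.9% of all tested genes. The direction of HEXIM1 was fixed by the choice. The neighbouring genes HEXIM1 and HEXIM2 also parted in OVCAR3. The sequences are from RefSeq on GRCh38.p14 and run 5′ to 3′ on the plus strand, from 250 bases before to 50 bases after the start. Capitals mark every match, on either strand, to 5 motifs: the TATA box TATAAA, the CCAAT box CCAAT, the GC box GGGCGG, the E-box CACGTG and the CRE TGACGTCA.
HEXIM1, chr17:45148225-45148524: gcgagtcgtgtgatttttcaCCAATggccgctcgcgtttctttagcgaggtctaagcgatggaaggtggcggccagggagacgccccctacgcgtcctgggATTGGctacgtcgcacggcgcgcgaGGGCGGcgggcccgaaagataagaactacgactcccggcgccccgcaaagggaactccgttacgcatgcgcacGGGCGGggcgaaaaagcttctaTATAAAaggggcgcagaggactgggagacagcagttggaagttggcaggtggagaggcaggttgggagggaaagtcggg
HEXIM2, the second of its listed starts, chr17:45161625-45161924: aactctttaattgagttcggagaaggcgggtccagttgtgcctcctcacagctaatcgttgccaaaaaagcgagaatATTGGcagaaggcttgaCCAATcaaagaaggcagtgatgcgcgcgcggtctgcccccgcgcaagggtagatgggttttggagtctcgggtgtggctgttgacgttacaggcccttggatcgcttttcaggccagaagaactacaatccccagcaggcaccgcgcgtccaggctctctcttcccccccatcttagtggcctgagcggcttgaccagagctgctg
CDK9, chr9:127785784-127786083: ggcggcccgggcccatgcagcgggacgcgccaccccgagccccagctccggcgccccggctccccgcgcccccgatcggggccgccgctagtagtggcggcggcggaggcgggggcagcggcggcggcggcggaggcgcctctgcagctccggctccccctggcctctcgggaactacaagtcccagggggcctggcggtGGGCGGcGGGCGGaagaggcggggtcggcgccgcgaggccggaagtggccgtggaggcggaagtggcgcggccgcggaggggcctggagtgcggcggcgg

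HEXIM1 was the only member with TATAAA, which lay on the plus strand at -29 from the start and overlapped no other match. TATAAA on either strand is held by 11.5% of the 35116 listed promoters of this length, and 2.36% hold it on the plus strand between -40 and -15. HEXIM1 also held 2 CCAAT and 2 GC boxes, the printed HEXIM2 start 2 CCAAT boxes, and CDK9 2 GC boxes. CCAAT is held by 34.6% of listed promoters and GGGCGG by 45.0%. Of the 9 members 8 had a listed promoter; ELL2 is named only. CACGTG was found in CCNT1, MEPCE and AFF4 (7.26% of listed promoters) and TGACGTCA in LARP7 (1.85%). The matches describe letters, and binding was not measured.

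The libraries were of unequal depth. Steps between the lowest FPKM values gave depths, relative to A2780 scrambled shRNA, from 0.501 in OVCAR3-COL11A1 to 1.58 in A2780-COL11A1, and absolute depth is unknown. A2780CIS had 297 FPKM of COL11A1 and A2780-COL11A1 had 8.17, against 4.23 with the scrambled shRNA and 0.670 in A2780-shCOL11A1, and it was at 1.67 in OVCAR3-COL11A1 against 0.0258 in OVCAR3-GFP. Of 8 epithelial ovarian cancer markers all were at or above 1 FPKM in the OVCAR3 libraries, while 6 were under 1 FPKM in every A2780 library, PAX8, WT1 and MUC16 among them. Summed leukocyte markers reached at most 0.197 FPKM and summed endothelial markers 0.431 FPKM in any library. Nothing in the labels says that libraries of a line came from separately grown cultures, so p-values measure only the spread between these libraries, which differ in construct. In bulk RNA, fewer transcripts in each cell and fewer cells holding the transcript cannot be told apart.

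HEXIM1, the inhibitor that gives the set its name, stood at 35.5 FPKM in A2780 scrambled shRNA, 44.7 in A2780-shCOL11A1, 19.4 in A2780CIS and 17.4 in A2780-COL11A1. It stood at 52.3 FPKM in OVCAR3-GFP and 18.5 in OVCAR3-COL11A1. The 3 high libraries lay close together and every low library lay above them, across the lines as well as within each. The order within each line was fixed by the choice, and the share of all tested genes that part across the lines is not given here. The nearest values on either side were 19.4 and 35.5 FPKM. COL11A1 itself did not part across the lines, at 1.67 FPKM in OVCAR3-COL11A1, a high library, and 4.23 in A2780 scrambled shRNA, a low one. As a level, HEXIM1 was above 88.1% of the tested genes in OVCAR3-GFP and above 66.3% of them in OVCAR3-COL11A1. The log2 difference between the groups, on the scale log2(FPKM + 1) with the line in the model, was -1.20 ± 0.19 (SE, limma, n = 3 libraries a group).

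The order of HEXIM1 among the A2780 libraries was not the reverse of that of COL11A1 throughout. A2780CIS, with 297 FPKM of COL11A1, and A2780-COL11A1, with 8.17, had HEXIM1 levels of 19.4 and 17.4 FPKM. A2780 scrambled shRNA, with 4.23 FPKM of COL11A1, had a HEXIM1 level of 35.5. With 1 library per construct, neighbours in this order have no spread to be compared with. HEXIM1 lies on chromosome 17 (43224683 to 43229468, GRCh37), and its principal transcript in GENCODE v29 has 1 exon, the fewest of the 9 members.

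**Figure D1:**
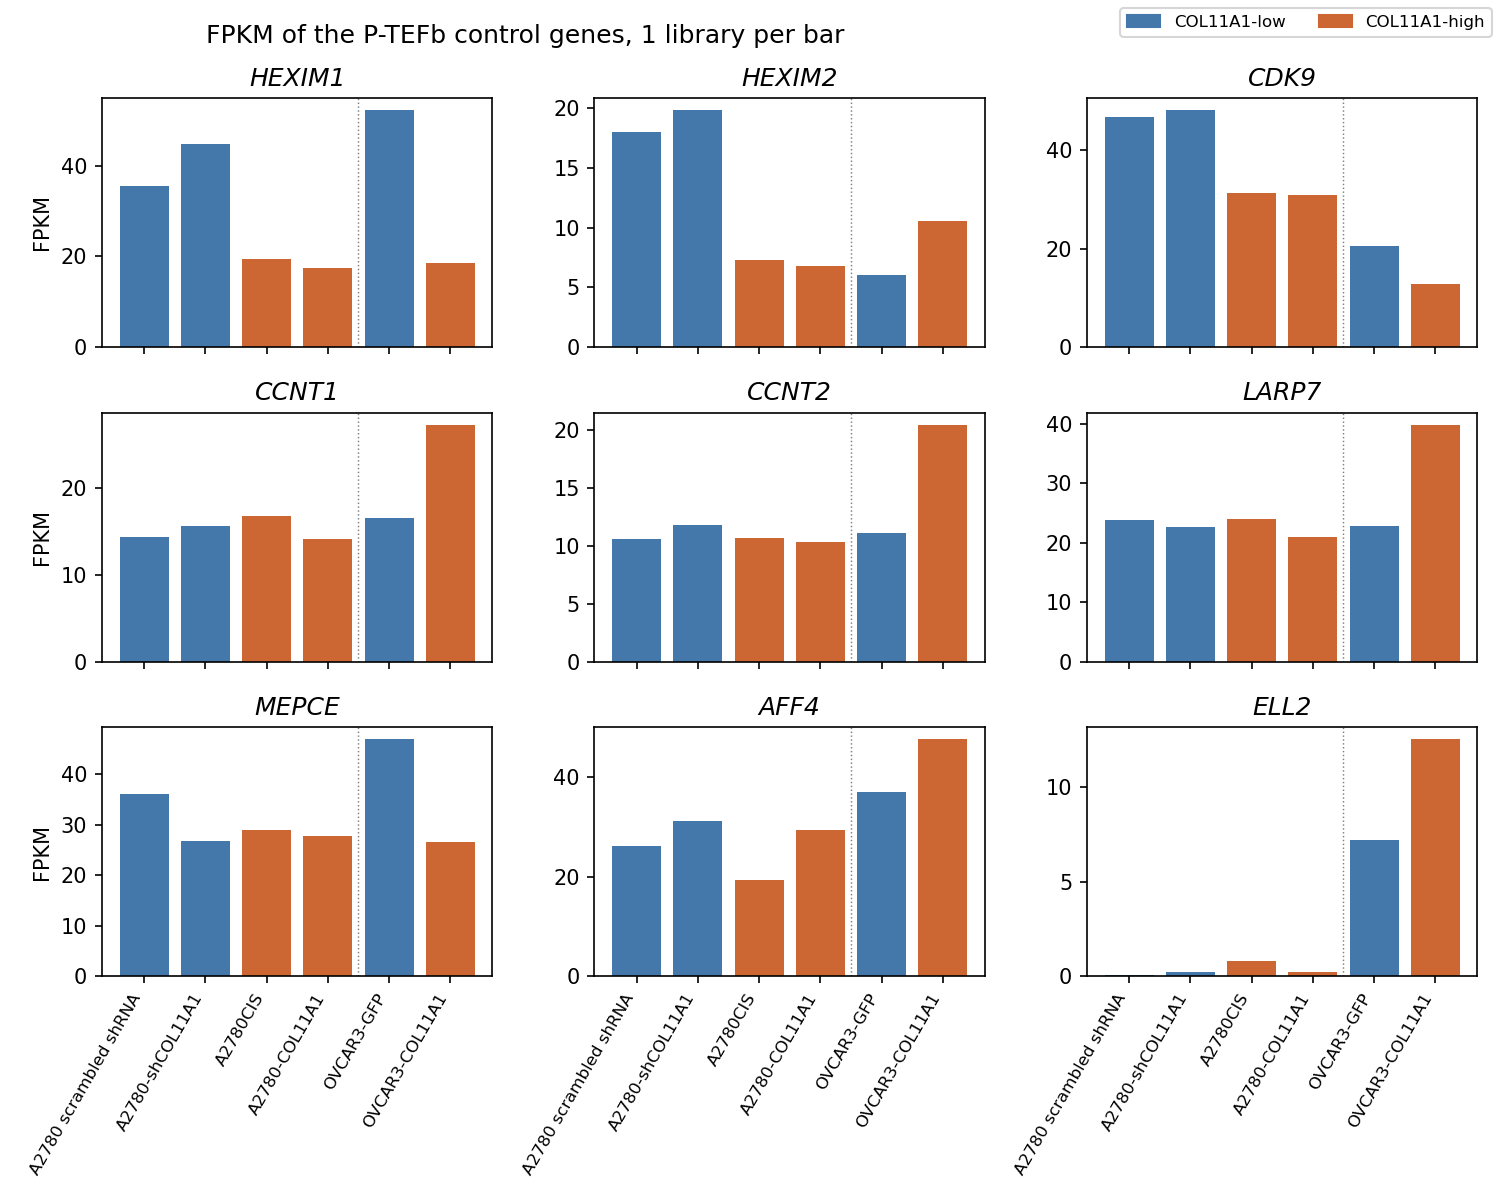
FPKM (vertical axis, from 0, with its own scale in each panel) of the 9 members in the 6 libraries (horizontal axis); each bar is 1 library, blue for COL11A1-low and orange for COL11A1-high, and the dotted line parts A2780 from OVCAR3. HEXIM1 and CDK9 are lower in each orange bar than in the blue bars of the same line, HEXIM2 parts that way in A2780 only, and ELL2 is under 1 FPKM in every A2780 library.

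HEXIM2, the paralogous inhibitor, starts 13.6 kb from HEXIM1 in the table (chromosome 17, 43238263 to 43247406, GRCh37). It stood at 18.0 FPKM in A2780 scrambled shRNA, 19.9 in A2780-shCOL11A1, 7.31 in A2780CIS and 6.82 in A2780-COL11A1. In OVCAR3 it stood at 6.05 FPKM in the GFP library and 10.5 in OVCAR3-COL11A1. The high libraries were thus below both low ones in A2780, and the high library was above the low one in OVCAR3. That pair of directions was seen in 15.3% of the tested genes, and the reverse pair, which no member had, in 8.12%. The difference between the groups was 2.01 ± 0.28 higher in OVCAR3 than in A2780 (log2, SE, limma interaction), with an adjusted p of 0.306. No gene of the table passed that limma test, and 13.6% had an unadjusted p under 0.05. OVCAR3 has 1 library a group, so the spread in this test comes from A2780. With 1 A2780 library left out the difference ran from 1.95 to 2.08. It passed without A2780-COL11A1 (adjusted p = 0.0347, limma), a fit in which 22.2% of tested genes passed, and not without A2780CIS (0.0830), A2780 scrambled shRNA (0.984) or A2780-shCOL11A1 (0.999).

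Summed over the paralogs, HEXIM1 and HEXIM2 together were at 53.5 and 64.6 FPKM in the low A2780 libraries and at 26.7 and 24.2 in the high ones. In OVCAR3 the sum was 58.4 FPKM in the GFP library and 28.99 in OVCAR3-COL11A1, so the sum was lower in the high libraries of each line. HEXIM1, whose direction the choice fixed, was the larger part of the sum in every library, and in OVCAR3 HEXIM2 went the other way. HEXIM1 made up 66.3% and 69.2% of the sum in the low A2780 libraries and 72.7% and 71.8% in the high ones. In OVCAR3 its share was 89.6% in the GFP library and 63.7% in OVCAR3-COL11A1.

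CDK9, the catalytic subunit (chromosome 9, 130548304 to 130553052, GRCh37), stood at 46.8 FPKM in A2780 scrambled shRNA, 48.2 in A2780-shCOL11A1, 31.3 in A2780CIS and 30.9 in A2780-COL11A1. In OVCAR3 it stood at 20.5 FPKM in the GFP library and 12.8 in OVCAR3-COL11A1. It was lower in each high library than in the low libraries of the same line, as was HEXIM1. The ratios of the high library to its control were 0.669 for A2780CIS, 0.661 for A2780-COL11A1 and 0.625 for OVCAR3-COL11A1. As a log2 group difference this was -0.61 ± 0.15 (SE, limma). Besides HEXIM1, whose direction the choice fixed, CDK9 was the only one of 8 members lower within both lines, and 12.3% of all tested genes were.

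The levels of HEXIM1 and CDK9 were also set against each other within each library, where scaling between libraries has no part. The HEXIM1 level was 0.760 of the CDK9 level in A2780 scrambled shRNA and 0.928 in A2780-shCOL11A1, against 0.621 in A2780CIS and 0.563 in A2780-COL11A1. In OVCAR3 this ratio was 2.55 in the GFP library and 1.44 in OVCAR3-COL11A1. The HEXIM1 level was thus the lower of both in all 4 A2780 libraries and the higher of both in OVCAR3. Within each line the ratio was lower in the high libraries, and the direction of HEXIM1 in it was fixed by the choice. With HEXIM2 added to HEXIM1, the ratio to CDK9 ran from 0.783 in A2780-COL11A1 to 1.34 in A2780-shCOL11A1, and was 2.85 and 2.26 in OVCAR3-GFP and OVCAR3-COL11A1.

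The cyclin partners of CDK9 did not part by group in A2780. CCNT1, which encodes cyclin T1 (chromosome 12, 49082240 to 49110781), stood at 14.3 and 15.6 FPKM in the low and 16.7 and 14.1 in the high A2780 libraries, which overlap. In OVCAR3 it stood at 16.5 FPKM in the GFP library and 27.2 in OVCAR3-COL11A1. CCNT2, which encodes cyclin T2 (chromosome 2, 135676391 to 135716915), stood at 10.6 and 11.8 FPKM in the low and 10.6 and 10.3 in the high A2780 libraries. It stood at 11.1 FPKM in OVCAR3-GFP and 20.4 in OVCAR3-COL11A1. The group differences were 0.25 ± 0.22 for CCNT1 and 0.22 ± 0.25 for CCNT2 (log2, SE, limma), each close to its error.

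The cyclins kept a similar proportion to each other. The CCNT1 level was between 1.32 and 1.57 times the CCNT2 level in all 6 libraries. The proportion of kinase to cyclin varied more. The CDK9 level was 3.27 and 3.09 times the CCNT1 level in the low A2780 libraries, 1.87 in A2780CIS and 2.20 in A2780-COL11A1. It was 1.24 times the CCNT1 level in OVCAR3-GFP and 0.470 in OVCAR3-COL11A1, the one library where the cyclin exceeded the kinase. The transcripts of CCNT1 and CCNT2 have 40.8% and 37.0% GC, and that of CDK9 has 55.1%. The part of base composition in these ratios was not tested.

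LARP7, the stable protein partner of 7SK (chromosome 4, 113558119 to 113578748), stood at 23.8 and 22.6 FPKM in the low A2780 libraries and 24.0 and 20.9 in the high ones. In OVCAR3 it stood at 22.8 FPKM in the GFP library and 39.9 in OVCAR3-COL11A1. OVCAR3-COL11A1 was the highest of the 6 for LARP7, as it was for CCNT1, CCNT2, AFF4 and ELL2. The LARP7 locus overlaps C4orf21 and microRNA genes of the table, and reads there can be assigned to either.

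MEPCE, the capping enzyme of 7SK (chromosome 7, 100026412 to 100031749), stood at 36.1 FPKM in A2780 scrambled shRNA, 26.8 in A2780-shCOL11A1, 28.99 in A2780CIS and 27.8 in A2780-COL11A1. The scrambled control stood apart from the other A2780 libraries. In OVCAR3 MEPCE stood at 46.8 FPKM in the GFP library and 26.5 in OVCAR3-COL11A1. The group difference was -0.35 ± 0.22 (log2, SE, limma). Against A2780-shCOL11A1 in place of the scrambled control, the ratio of A2780CIS was 1.08 and that of A2780-COL11A1 1.04, where it had been 0.803 and 0.771. The locus of MEPCE overlaps ZCWPW1 in the table.

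AFF4, the scaffold of the super elongation complex (chromosome 5, 132211070 to 132299354), stood at 26.2 FPKM in A2780 scrambled shRNA, 31.3 in A2780-shCOL11A1, 19.3 in A2780CIS and 29.3 in A2780-COL11A1. The A2780 groups overlapped and A2780CIS was the lowest. In OVCAR3 it stood at 37.1 FPKM in the GFP library and 47.6 in OVCAR3-COL11A1. The group difference was -0.05 ± 0.24 (log2, SE, limma), and its sign changed in 3 of 15 alternative settings. ELL2, a partner of AFF4 (chromosome 5, 95220801 to 95297775), stood between 0.0937 and 0.815 FPKM in the 4 A2780 libraries, at 7.20 in OVCAR3-GFP and at 12.5 in OVCAR3-COL11A1. The highest of the A2780 values was that of A2780CIS, and at these levels the A2780 libraries give little to compare.

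Each construct was then set against a control library of its line, 1 library against 1 and with no test. A2780-COL11A1, A2780CIS and A2780-shCOL11A1 share the scrambled control, so the 3 are given side by side. By 2-fold or more, in units of log2(FPKM + 1), 1 of 9 members differed in A2780-COL11A1, where 2.76% of tested genes did (0.849% higher, 1.91% lower). In A2780CIS 1 of 9 did, where 18.5% of genes did (8.43% higher, 10% lower). In both it was HEXIM2, lower at -1.28 and -1.19. HEXIM1 was at -0.99 and -0.84 there. With a pseudocount of 0.1 in place of 1 HEXIM1 was at -1.03 in A2780-COL11A1, past 2-fold, where 769 tested genes were. ELL2 was at 2.24 in A2780CIS with that pseudocount, where it had been at 0.73, and 3221 tested genes were past 2-fold there. ELL2 was under 1 FPKM in both libraries of that pair. With A2780-shCOL11A1 as the control HEXIM1 was at -1.31 and -1.16 and HEXIM2 at -1.42 and -1.33, both past 2-fold in either library. Against that control 593 tested genes were past 2-fold in A2780-COL11A1 and 2450 in A2780CIS. In A2780-shCOL11A1, of the low group, 0 of 9 members differed by 2-fold, where 0.374% of genes did, and HEXIM1 was 0.32 above the scrambled control.

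In OVCAR3-COL11A1 against OVCAR3-GFP, which shares no library with the others, 1 of 9 members differed by at least 2-fold, where 11% of tested genes did (6.79% higher, 4.18% lower). It was HEXIM1, lower at -1.45. By direction, 6 members were higher in OVCAR3-COL11A1 and 3 lower, beside 53.7% and 45.4% of all tested genes, the rest being equal in both libraries. The members higher there, HEXIM2, CCNT1, CCNT2, LARP7, AFF4 and ELL2, differed by 0.35 to 0.83. The members lower besides HEXIM1 were CDK9, at -0.64, and MEPCE, at -0.80. The median over the 9 members was 0.69 and over all tested genes 0.05.

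**Figure D2:**
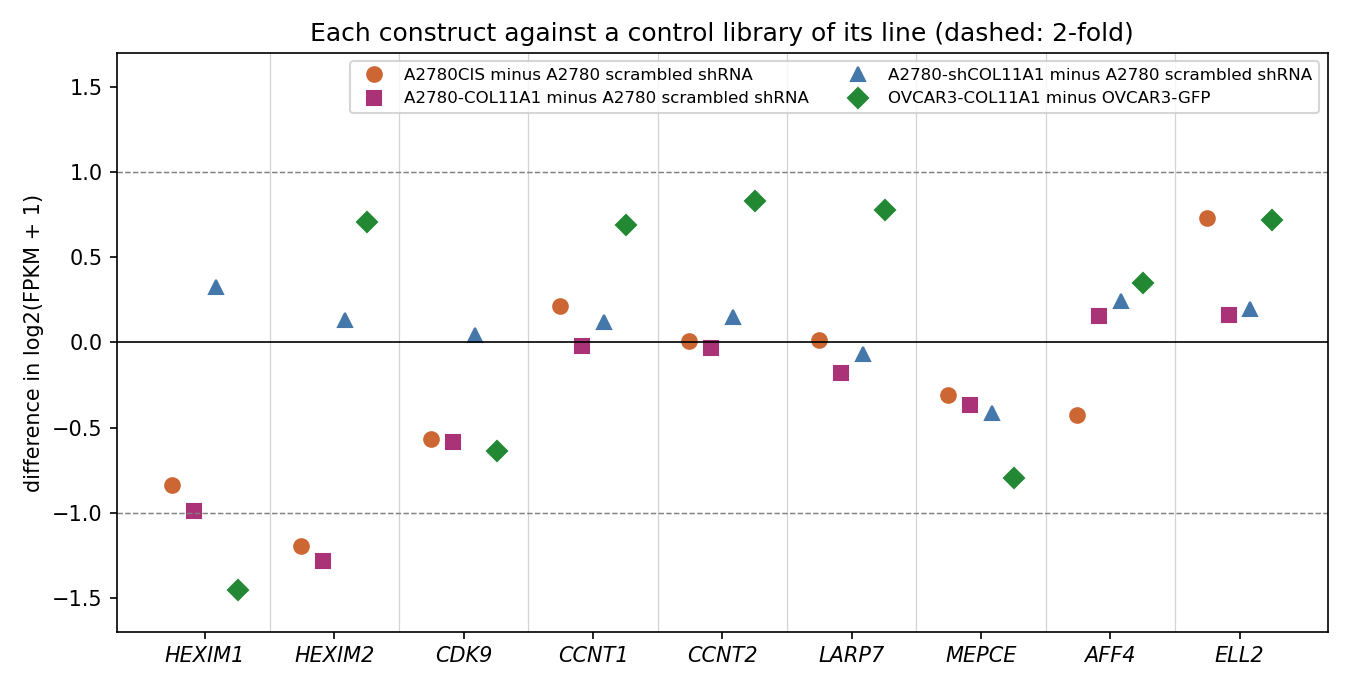
Difference in log2(FPKM + 1) (vertical axis) of the 9 members (horizontal axis) for 4 pairs of libraries; each point is 1 library minus 1 control library, with no error, and the dashed lines mark 2-fold. HEXIM1 and CDK9 lie below 0 in the 3 pairs with a COL11A1-high library and above 0 in A2780-shCOL11A1 (blue triangles), while HEXIM2 lies at -1.19 and -1.28 in the A2780 pairs and at 0.71 in OVCAR3.

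Base composition moved with the differences between the OVCAR3 libraries. OVCAR3-COL11A1 was also the shallowest library, at 0.501 of the depth of A2780 scrambled shRNA, where OVCAR3-GFP was at 1.14. Tested genes were split into 5 bins of equal size by the GC content of the principal GENCODE v29 transcript, which 92.6% of them had. The median difference of OVCAR3-COL11A1 from OVCAR3-GFP was 0.40 in the bin lowest in GC, 0.23, 0.01 and -0.16 in the next, and -0.21 in the highest. CCNT1, CCNT2, LARP7, AFF4 and ELL2, all higher in OVCAR3-COL11A1, belonged to the bin lowest in GC, with transcripts of 37.0% to 41.1% GC. CDK9 had 55.1% and MEPCE 61.7%. HEXIM1 had 48.2% and belonged to the middle bin, and HEXIM2 had 60.9% and was higher in OVCAR3-COL11A1 although in the highest bin. The part of base composition and depth in these values was not tested beyond the trend removed next.

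With a smooth trend on GC content and length taken out of each library, an alternative added after seeing the data, the difference in OVCAR3 was 0.42 for CCNT2, 0.43 for LARP7, 0.41 for CCNT1, 0.42 for ELL2 and 0.05 for AFF4. These had been 0.83, 0.78, 0.69, 0.72 and 0.35. HEXIM1 stood at -1.46 with the trend removed, CDK9 at -0.46, MEPCE at -0.53 and HEXIM2 at 1.00. The HEXIM1 difference was thus as large without the trend, and that of HEXIM2 was larger. In A2780 the medians of the GC bins spanned less, from 0.01 to -0.19 in A2780-COL11A1 and from 0.10 to -0.22 in A2780CIS. With the trend removed HEXIM1 was there at -1.01 and -0.81, HEXIM2 at -1.20 and -1.13, and CDK9 at -0.55 and -0.43.

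**Figure D3:**
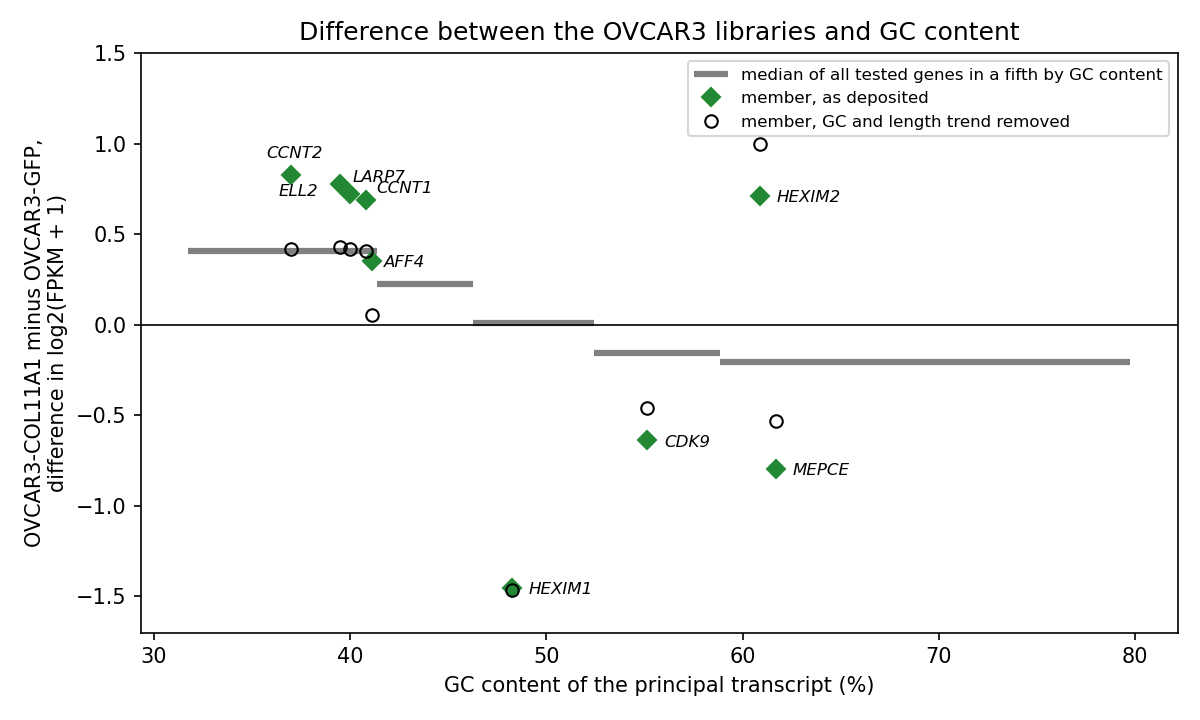
Difference of OVCAR3-COL11A1 from OVCAR3-GFP in log2(FPKM + 1) (vertical axis) against the GC content of the principal transcript in percent (horizontal axis); grey bars are medians of all tested genes in 5 bins by GC content, green diamonds the 9 members as deposited and open circles the same with the GC and length trend removed. Members low in GC lie nearer 0 with the trend removed, while HEXIM1 stays at about -1.46.

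The lines themselves were compared with the group in the model (2 OVCAR3 against 4 A2780 libraries), a difference that the choice of members did not use. ELL2 was under 1 FPKM in every A2780 library and passed the filter on low values only through OVCAR3, where it is high, so its value from the filtered fit, 3.0 ± 0.27 (log2, SE, limma), is given with no test. In the fit with no filter ELL2 was 3.0 ± 0.25 higher in OVCAR3 (adjusted p = 0.00652, limma). CDK9 was lower in OVCAR3, by -1.20 ± 0.16 (log2, SE, adjusted p = 0.00288, limma), with both OVCAR3 libraries below all 4 of A2780. Their means were 9.86 FPKM in OVCAR3 and 0.346 in A2780 for ELL2, and 16.6 and 39.3 for CDK9. Of the 8 members other than ELL2, CDK9 alone passed, where 45.2% of all tested genes did, 19.6% higher and 25.6% lower in OVCAR3 (54.9% at an unadjusted p under 0.05). The CDK9 call held in all 14 alternatives, with adjusted p up to 0.0252.

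The other 7 members did not pass. AFF4 differed by 0.67 ± 0.26 (adjusted p = 0.0811), CCNT1 by 0.46 ± 0.23 (0.148), CCNT2 by 0.44 ± 0.27 and LARP7 by 0.39 ± 0.24, all limma. HEXIM1 differed by 0.19 ± 0.20 (adjusted p = 0.457), HEXIM2 by -0.49 ± 0.46 (0.413) and MEPCE by 0.24 ± 0.24 (0.438). The difference between the lines for HEXIM1 was thus no larger than its error. For most of these members the value turned on which OVCAR3 library was kept. HEXIM2 was at -1.50 without OVCAR3-COL11A1 and at 0.52 without OVCAR3-GFP. In the same order LARP7 was at -0.02 and 0.80, CCNT2 at -0.01 and 0.90, and MEPCE at 0.57 and -0.09. CCNT1 was at 0.13 and 0.79, AFF4 at 0.36 and 0.97, and HEXIM1 at 0.38 and 0.006. CDK9 moved little, at -1.17 and -1.22. Each of these fits leaves OVCAR3 with 1 library, which is assumed to vary as the A2780 libraries do. The median over all tested genes was -0.15, and median scaling of the libraries moved it to 0.02. With median scaling AFF4 was at 0.86 and CCNT1 at 0.65, and both passed. The median line difference was 0.24 in the fifth of genes lowest in GC content and -0.65 in the highest. With a trend on GC content and length removed, AFF4 was at 0.34, CCNT1 at 0.12, CCNT2 at 0.05 and LARP7 at 0.11. MEPCE moved the other way, to 0.65.

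The genes most like HEXIM1 were sought by the root mean square distance between profiles of log2(FPKM + 1), centred on the mean of each line, over the 6 libraries. The nearest 8 were HDHD3 (0.0973), TST (0.146), PLEKHF1 (0.151), GEMIN4 (0.152), TSKU (0.164), TMEM177 (0.172), NME3 (0.173) and CNP (0.176). The median distance over all tested genes was 0.678. HDHD3, a gene of the haloacid dehalogenase-like family, stood at 13.6 and 17.2 FPKM in the low and 7.90 and 5.72 in the high A2780 libraries, and at 5.36 and 1.71 in OVCAR3-GFP and OVCAR3-COL11A1. The loci of TST and CNP overlap MPST and DNAJC7. Among the members CDK9 was nearest to HEXIM1, at 0.319 and rank 141 of 12840, followed by MEPCE at 0.482 and rank 1289. HEXIM2, its genomic neighbour, was at 0.634 and rank 5087.

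Of the 25 other genes of the table with loci inside 500 kb on each side of HEXIM1, 21 were tested. Within both lines 3 of them were lower in the high libraries, CCDC103, PLCD3 and LRRC37A4P, and 1 was higher, ACBD4, beside 12.3% and 10.1% of all tested genes. In A2780 alone 7 were lower and 4 higher with no overlap, beside 27.9% and 18.3%. Their median group difference was -0.16, against -1.20 for HEXIM1. ACBD4, the nearest gene on the side away from HEXIM2, starts at -14.7 kb from the start of HEXIM1 and stood at 8.85 and 7.64 FPKM in the low and 9.27 and 9.04 in the high A2780 libraries, and at 1.51 and 1.88 in OVCAR3. PLCD3, a phospholipase C gene, stood at 10.7 and 10.1 FPKM in the low and 8.95 and 9.02 in the high A2780 libraries, and at 67.4 and 50.1 in OVCAR3-GFP and OVCAR3-COL11A1. No other tested gene in the window was as low as HEXIM1 in OVCAR3-COL11A1 against its control, and HEXIM1 was chosen for being low there.

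**Figure D4:**
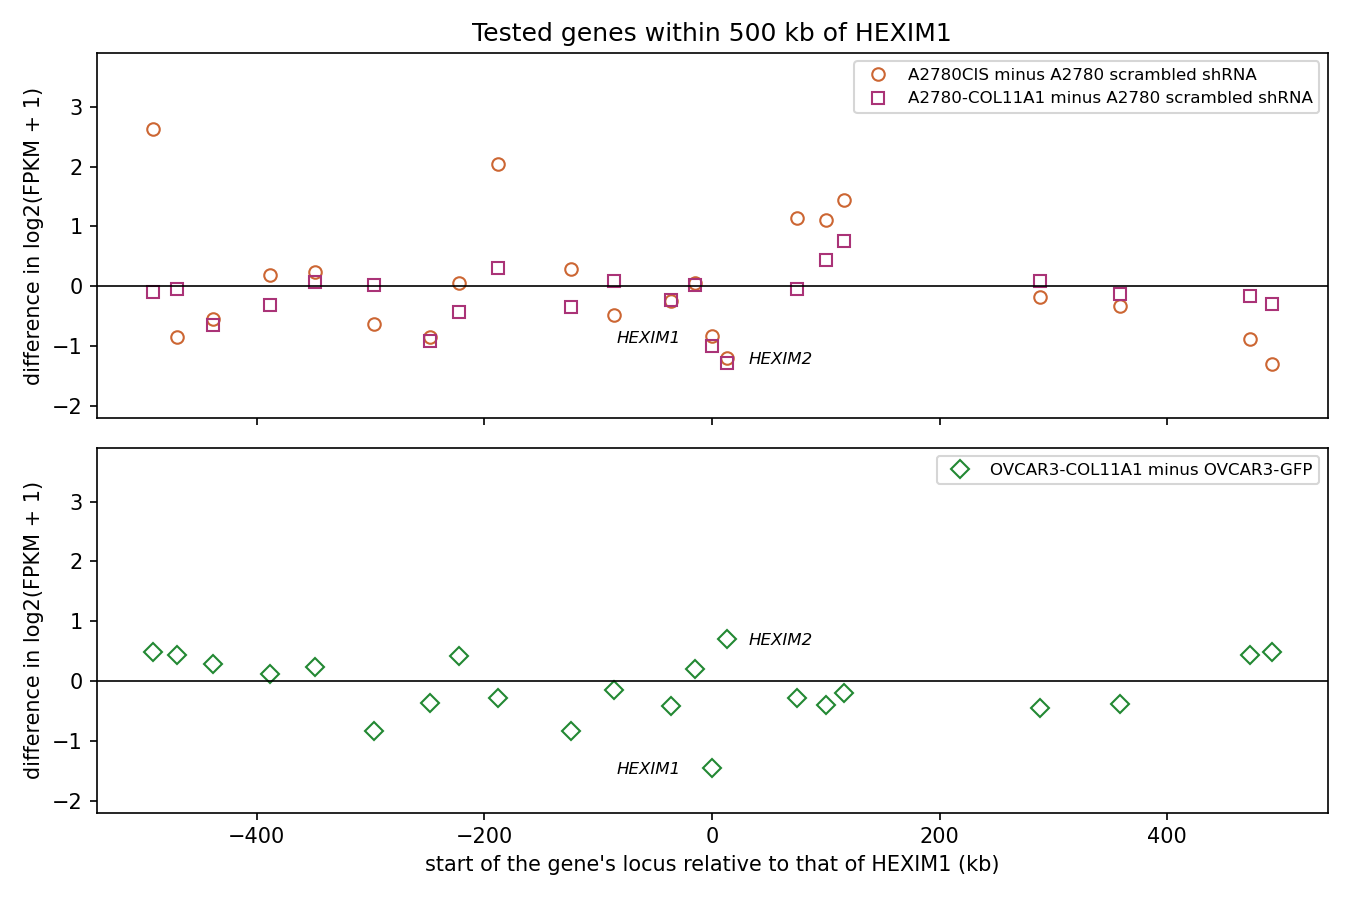
Difference in log2(FPKM + 1) (vertical axes) of the tested genes within 500 kb of HEXIM1 by the start of their locus relative to that of HEXIM1 in kb (horizontal axis), in the A2780 pairs (upper panel) and the OVCAR3 pair (lower panel); each point is 1 gene in 1 library minus 1 control library. HEXIM1 and HEXIM2 lie together at -0.84 to -1.28 in A2780 and apart, at -1.45 and 0.71, in OVCAR3.

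The wider elongation machinery was described over 6 lists of known components, with 46 genes besides the members, and a separate list held short-lived transcripts. None passed the group comparison, where no gene of the table did (limma, 6.48% of tested genes at an unadjusted p under 0.05). Of the 46 genes 25 had a positive and 21 a negative group difference, where 49.0% of all tested genes were positive, with a median of 0.01 against -0.01 over all tested genes. In 10 of the 46 every high library was above the low ones of its line, beside 10.1% of all tested genes, and in 4 every high library was below them, beside 12.3%.

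In the super elongation complex, of 9 tested genes 5 were positive and 4 negative, with a median of 0.06. EAF1 and EAF2, which bind ELL factors, differed by 0.52 ± 0.17 and 0.79 ± 0.35, and ELL by -0.29 ± 0.22 (log2, SE, limma). EAF1 stood at 10.7 and 10.4 FPKM in the low and 15.1 and 14.3 in the high A2780 libraries, and at 30.5 and 49.9 in OVCAR3. Of 12 factors that recruit or release P-TEFb, 5 were positive. BRD2, a BET bromodomain protein, differed by -0.41 ± 0.18, the RNA helicase gene DDX21 by 0.43 ± 0.16 and the phosphatase gene PPM1G by -0.24 ± 0.20.

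The pausing factors NELF and DSIF had 3 positive and 3 negative of 6 genes and a median of -0.02, with NELFB at -0.34 ± 0.16. In the PAF1 complex and its cofactors 7 of 12 were positive, with LEO1 at 0.40 ± 0.17, TCEA1 at 0.38 ± 0.20 and PAF1 at -0.33 ± 0.26. Among 9 other transcriptional CDKs and cyclins 6 were positive, with a median of 0.20. CDK7, the kinase of TFIIH that can activate CDK9, differed by 0.53 ± 0.18, its cyclin CCNH by 0.49 ± 0.23 and CDK8 by 0.37 ± 0.21. CDK7 stood at 11.9 and 11.8 FPKM in the low and 20.5 and 16.5 in the high A2780 libraries, and at 34.6 and 46.0 in OVCAR3. It was thus higher in each high library, where CDK9 was lower.

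Short-lived transcripts known to be sensitive to CDK9 inhibition were the list with the highest median group difference, 0.65, with 13 of 16 positive. Against the scrambled control 14 of 16 were positive in A2780CIS, with a median of 0.64. In A2780-COL11A1 13 of 16 were, with a median of 0.63. The same number, 13 of 16, was positive in A2780-shCOL11A1, a COL11A1-low library, with a median of 0.19. In OVCAR3-COL11A1 against OVCAR3-GFP 11 of 16 were positive, with a median of 0.22. Of all tested genes 44.4%, 44.1%, 49.1% and 53.7% were positive in these pairs, in the same order. For 7 of the 16 the high libraries were above the low ones within both lines, beside 10.1% of all tested genes. KLF10, a zinc finger factor of the TGF-beta response, differed by 1.54 ± 0.42 and IER3, an immediate early gene, by 1.27 ± 0.31 (log2, SE, limma). JUN, an AP-1 subunit, differed by 1.23 ± 0.52. These 3 had the largest differences of the list. The 3 negative ones were BTG2 at -0.44 ± 0.25, MCL1 at -0.23 ± 0.32 and IER2 at -0.20 ± 0.19. In A2780 JUN stood at 0.153 and 0.175 FPKM in the low libraries, and at 5.78 in A2780CIS and 1.22 in A2780-COL11A1. In OVCAR3 it stood at 62.2 FPKM in the GFP library and 72.6 in OVCAR3-COL11A1. Many genes of this list also respond to growth factor and stress signals, and the part of P-TEFb in their values was not tested.

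Between the lines, with the same limma threshold, 4 of the 6 pausing factors were higher and 1 lower in OVCAR3, beside 19.6% and 25.6% of all tested genes. In the PAF1 list 3 of 12 were higher and 6 lower. PAF1 itself was at 319 to 371 FPKM in OVCAR3 and 24.97 to 46.6 in A2780, 3.10 ± 0.27 higher in OVCAR3 (log2, SE, adjusted p = 0.000806, limma). In the list of P-TEFb and the 7SK particle only CDK9 passed, of 7 genes.

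**Figure D5:**
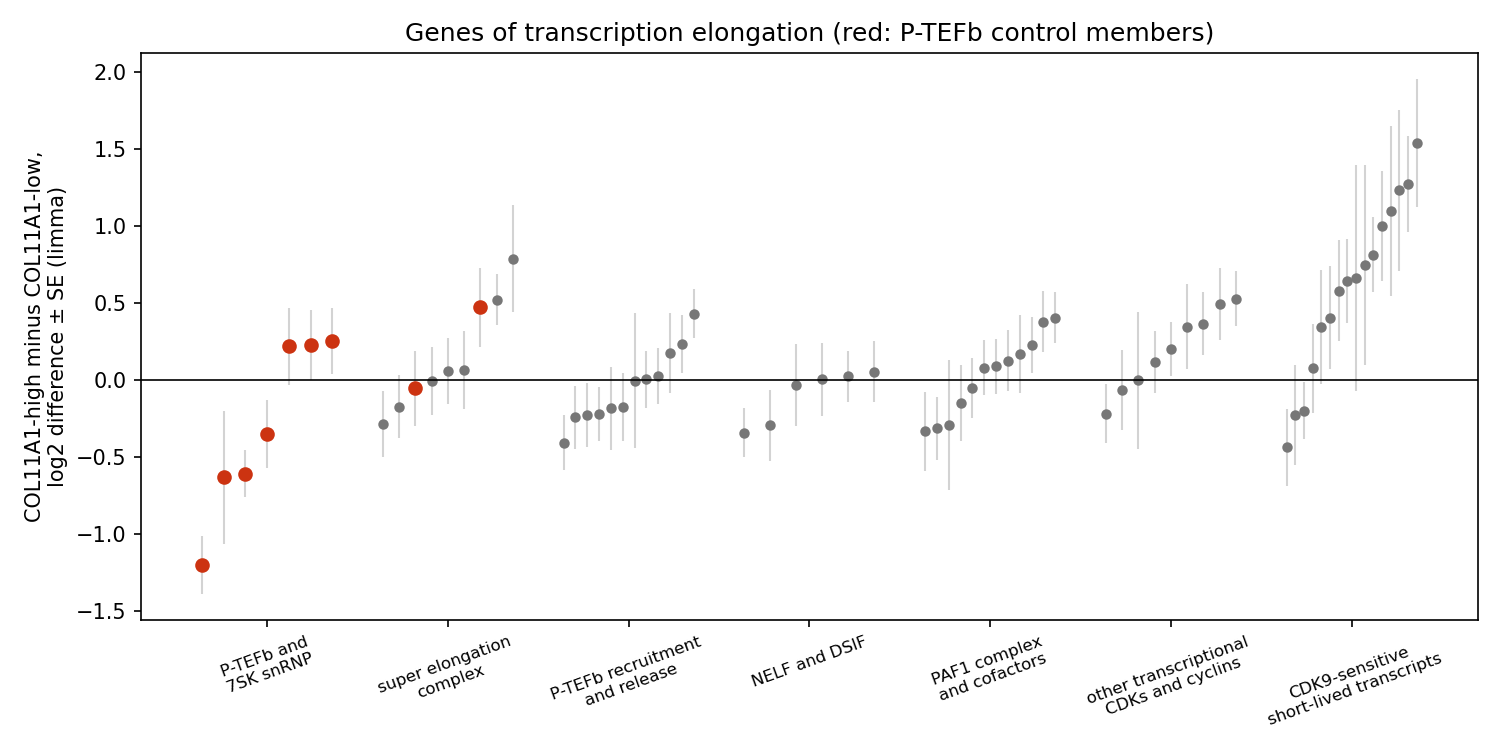
Group difference, COL11A1-high minus COL11A1-low in log2(FPKM + 1) from limma (vertical axis), of the genes of 6 lists of elongation components and 1 of short-lived transcripts (horizontal axis), each point 1 gene with its SE as a grey bar and the members in red. HEXIM1, chosen for being low in this comparison, is the lowest of all genes shown at -1.20, and the short-lived transcripts reach 1.54.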

How the data were processed

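Poly-A RNA of 6 cultures was made into stranded libraries and read as single-end reads of 75 bases, with an average of about 20 M reads a sample, per the labels' protocols. The authors deposited 1 table of FPKM values, per the file headers; its unit is filed under other because some cells hold the words LOWDATA or FAIL. The submitters' processing notes name STAR 2.5.0, RSEM 1.2.25 and GRCh38 without a role, while the loci of the table are those of GRCh37 and its columns are named as Cufflinks names them. Which program gave the values is therefore open. The table calls itself filtered, and the filter is not given in the sources used here. Whether counting used strand is not given either.

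Of 25275 entries, those off the main chromosomes (1304), with LOWDATA in every library (238 of the rest) or a word in some (2), named as calendar dates (28) or under 1 of 306 names with several loci were left out, which kept 23145 genes. Values were used as log2(FPKM + 1), and the 12841 genes averaging 1 FPKM or more were fitted with limma 3.58.1 in R 4.3.3 (group and line, intensity trend, two-sided, Benjamini-Hochberg threshold of 5% over all tested genes). A group by line term gave the interaction. Fold changes on this scale understate those of low genes. The GC and length trend was a smooth fit with mgcv 1.9.3 on GENCODE v29 transcripts. The members and gene lists were chosen with earlier results of these data known. Named genes were the members, up to 3 further genes per list with the largest absolute group difference, the 8 genes nearest to HEXIM1 in profile, and genes within 500 kb of it. The 3 short-lived transcripts with a negative group difference were named as well. Genes of the 7SK RNA itself were not analysed here. Alternatives changed the pseudocount, filter, scaling, variance trend, covariates, control library and the libraries used.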

Additional observations from a re-analysis of the deposited data

Results flagged for a closer look

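HEXIM2 was flagged because its group difference ran in opposite directions in the lines: both COL11A1-high A2780 libraries were below both low ones, and OVCAR3-COL11A1 was above OVCAR3-GFP. The difference in OVCAR3 was 2.01 above that in A2780 on the log2 scale (SE 0.28, limma interaction, adjusted p = 0.306). Over 11 alternatives it ran from 1.81 to 2.27, and it passed in 2 of them and not in the others. The 2 were the fit with no filter on low values and the fit without A2780-COL11A1, in which many other genes passed as well. OVCAR3 has 1 library a group, and the spread in this test comes from the A2780 libraries alone.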

How the results depend on the processing

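The HEXIM1 group difference ran from -1.33 to -1.08 in log2 over 15 alternatives. Its direction was fixed by the choice of HEXIM1, so the unchanged sign is no support. The CDK9 difference ran from -0.63 to -0.52. Of 134 such values over the 9 members 7 changed sign, those of CCNT2, LARP7 and AFF4. HEXIM2 was at -1.31 without either OVCAR3 library, where -0.63 was the value with all. No gene passed the group comparison in any alternative run. The interaction, at 0 genes, gave 1495 with no filter on low values and between 0 and 2856 with 1 library left out, 10 without A2780CIS and 2856 without A2780-COL11A1; the cause was not tested, and it could not be fitted without an OVCAR3 library. The 5810 genes past the threshold between the lines were 3181 to 7346 with 1 library left out (3181 when OVCAR3-COL11A1, 3850 when OVCAR3-GFP, 3464 when the scrambled control and 3804 when A2780-shCOL11A1 was the library left out, and 7346 when A2780CIS was); the cause was not tested. Of the line differences of the members, 5 of 125 passed in an alternative only: HEXIM2 without OVCAR3-COL11A1, LARP7 without OVCAR3-GFP, CCNT1 and AFF4 with median scaling, and MEPCE with the GC and length trend removed. Genes at least 2-fold numbered 354 in A2780-COL11A1, 48 in A2780-shCOL11A1 and 1409 in OVCAR3-COL11A1; a pseudocount of 0.1 gave 769, 205 and 2270, A2780-shCOL11A1 as control gave 593 for A2780-COL11A1, and removing the GC and length trend gave 31 for A2780-shCOL11A1; the cause was not tested. No paired analysis was possible because the labels number no replicates. Absolute depth is unknown, and OVCAR3-COL11A1 was the shallowest library.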
